A study of Tupaia belangeri with 2 samples.

Results

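The cadherins and protocadherins were taken by name from the gene annotation of the Chinese tree shrew, in 2 embryonic whole brains profiled by single-cell RNA sequencing. A gene name belonged to the set when it began with CDH or CADH and a number, with PCDH, PCD and a number, PCDG, PCDB or DCHS, or was CELSR1 to CELSR3 or FAT1 to FAT4, and had at least 20 UMIs in both libraries together. A UMI is a molecular tag that counts 1 captured transcript. Of the 18543 names in the annotation, 45 matched the pattern and 35 were kept. The kept names covered 67 gene models, of which 43 had at least 20 UMIs and are described here. Just inside the threshold lay CDH15 with 24 UMIs and CADH5 with 27, and just outside it PCDH15 with 18 and CDH3 with 15. The other names left out were PCDH12, FAT2, CADH4, CDH26, PCD16, DCHS2, CDH16 and CDH17, with 0 to 9 UMIs each.

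Cadherins are calcium-dependent adhesion proteins of the cell surface, most of which bind the same cadherin on a neighbouring cell. Classical cadherins (type I, such as N-cadherin, and the more diverse type II) couple through catenins to the actin cytoskeleton, and in the developing brain combinations of type II cadherins mark neuron pools, nuclei and layers. Protocadherins lack the catenin-binding tail: the clustered ones give each neuron a surface identity, and delta-2 protocadherins recruit actin regulators. The giant FAT and Dachsous cadherins and the CELSR proteins act in planar cell polarity, the shared orientation of cells in a sheet.

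Both embryos were whole brains of Tupaia belangeri at 4 to 5 postconceptional weeks, without any treatment or genotype contrast, and the dura mater and blood vessels were dissected away before dissociation. Each gave 1 library of the 10x Chromium 3′ kit, so the 2 libraries are 2 animals and the comparisons are between cell classes within them. The libraries held 9241 and 9685 barcodes with 41868023 and 38077767 UMIs, and 18 barcodes occurred in both. Cells with at least 200 genes numbered 8408 and 9327, with medians of 3539 and 3169 UMIs. Haemoglobin took 22.5% of the UMIs of these cells in embryo 1 and 8.38% in embryo 2. The member models held 28982 and 34290 UMIs. Models named FAT4 held 17248 and 21594 of these, and 1 of them, evm.model.chr13.356, held 11211 and 13759. That model is counted apart below, since its identity was not settled.

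The cells were grouped anew into 17 clusters without any gene of the pattern among the genes that made the clusters, and 16 of them were named "-like" from fixed marker genes (12 classes). Cluster 11, with radial glial markers but astrocyte-type genes such as CLU among its leading genes, stayed unnamed. Radial glia-like cells, the neural stem cells, formed clusters 4 (PAX6, SFRP1) and 5 (led by DBX1, DLL3 and PAX3), and dividing cell-like cells clusters 3 and 9 (FZD10). None of the radial glial markers was among the 10 leading genes of cluster 5. Nascent inhibitory neuron-like cells formed clusters 1 (ISL1, SIX3) and 6 (DLX genes, SST), and inhibitory neuron-like cells cluster 0 (GATA3, OTX2, LHX1). Cluster 1 was named on 5 markers of the nascent list (DLX5, ISL1, GAD2, SIX3 and MEIS2). Its leading genes also held CHGB, SCN2A, TAU and CAMK2B, and how mature its cells are was not tested. Excitatory cells were cortical-like in cluster 7 (NEUROD6, TBR1), midbrain or thalamus-like in cluster 2 (POU4F2, LHX9) and granule neuron-like in cluster 10 (CBLN1, ZIC genes). Cluster 10 was named on 5 granule neuron markers against 4 of midbrain or thalamus neurons (SLC17A6, LHX9, SHOX2, TCF7L2), with TCF7L2 among its leading genes. The share of inhibitory neuron-like cells was 11.5% in embryo 1 and 22.3% in embryo 2. The level of a gene is its share of the UMIs in a class or cluster, scaled to a total of 1000000 (CPM), and is given for embryo 1 and then embryo 2, and log2 fold changes are given with their SE.

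Names did not map to models one to one. FAT4 was the name of 27 models on 15 chromosomes or contigs, 7 of them with at least 20 UMIs. In mammals FAT4 lies beside ANKRD50, and the model evm.model.chr26.221 with 1783 UMIs was numbered close to ANKRD50, so that FAT4 below means this model. The other 6 were counted apart, a choice made after their totals were seen, and range from 23 UMIs to 24970 UMIs (evm.model.chr13.356, numbered between ABHD3 and ESCO1). FAT1 was split over 2 neighbouring models, evm.model.chr20.408 and evm.model.chr20.409, and the endothelial cadherin over the neighbouring models CADH5 and CDH5. N-cadherin is named CADH2. No model carried the names CDH13, CDH19, PCDH7, CELSR1 or CELSR3, so nothing is reported under these names. The PCDH9-named model evm.model.chr30.141 was numbered near TBC1D19 and STIM2. Another PCDH9-named model, evm.model.chr9.642, shared its chromosome with PCDH17 and PCDH20 and was too low to test. It was not settled whether evm.model.chr30.141 is PCDH9 or another delta protocadherin such as PCDH7. Closely related family members may share reads at their 3′ ends, and the clustered protocadherins, which are spliced to common last exons, are uncertain in this respect.

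**Figure D1:**
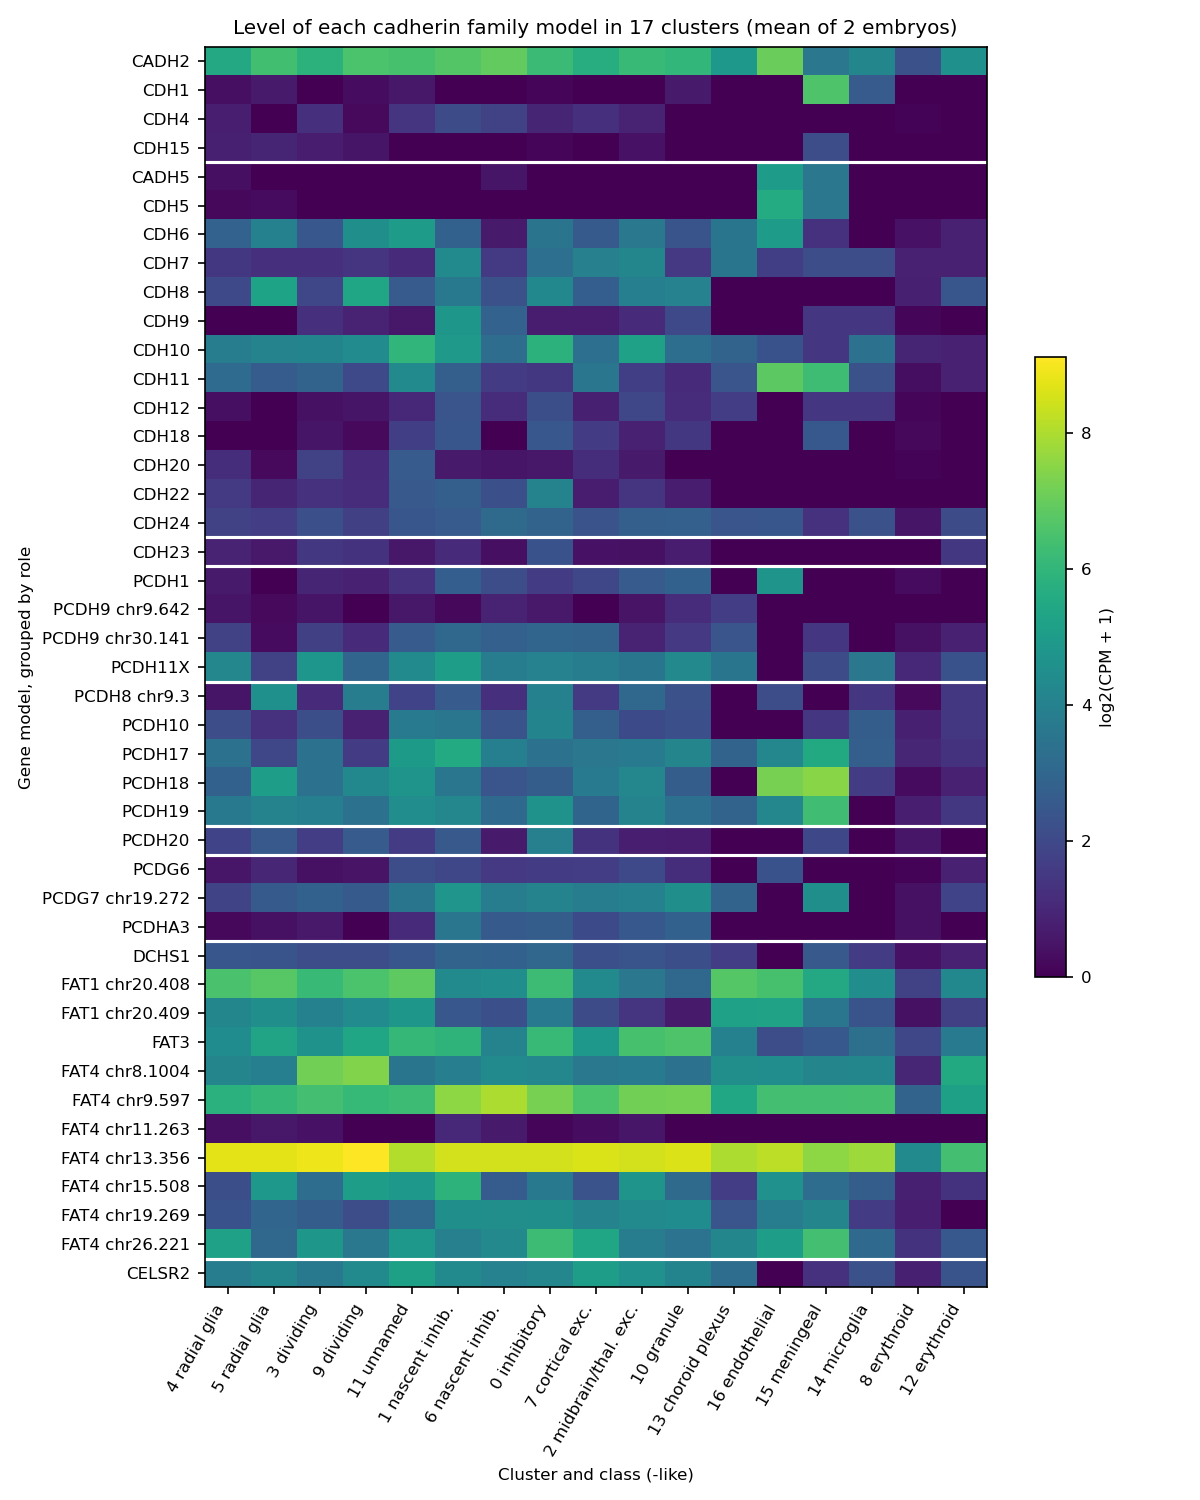
Level of each of the 43 models (rows, grouped by role and separated by white lines) in each of the 17 clusters (columns), as log2 of the mean CPM of the 2 embryos plus 1. N-cadherin (CADH2) is bright in nearly every column outside the erythroid, meningeal, choroid plexus and microglia-like cells, whereas most other cadherins stand out in a few columns.

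CADH2, the type I cadherin of neuroepithelial junctions, was found throughout the neural classes. Its level was highest among them in nascent inhibitory neuron-like cells (109 and 107 CPM in embryos 1 and 2) and lowest in cortical excitatory-like cells (51 and 48.5 CPM). The intervals of the 2 embryos overlapped in both classes, and the intervals of the first class lay above those of the second. Erythroid-like cells, which should lack the gene, held 5.03 UMIs per 100 cells, against 28.3 in nascent inhibitory neuron-like and 26.1 in radial glia-like cells, at median depths of 10670 and 11607 UMIs in erythroid-like and 2330.5 and 2318.5 UMIs in nascent inhibitory neuron-like cells. Such counts come with any droplet library, and UMIs per cell at or below those of erythroid-like cells are read as background. CDH4, the retinal type I cadherin, was low, at 2.69 and 3.22 CPM in nascent inhibitory neuron-like cells and below 2 CPM in every other neural class. CDH15, the muscle cadherin, had 3 and 7 UMIs in radial glia-like and 3 and 5 UMIs in dividing cell-like cells and 3 or fewer per embryo in any other class.

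Cells outside the neural classes carried their own cadherins. CDH1, the epithelial E-cadherin, which also marks the arachnoid barrier of the meninges, was at 70.9 and 120.0 CPM in meningeal fibroblast-like cells and at most 3 UMIs per embryo in any other class. CDH5, the cadherin of endothelial junctions, reached 57.3 and 38.6 CPM in endothelial-like cells, and its neighbouring model CADH5 22.1 and 42.1 CPM. Meningeal-like cells held 3 and 4 UMIs of each model, and neural classes 0 to 2 per embryo. CDH11, a type II cadherin of mesenchymal cells, stood at 110.3 and 116 CPM in endothelial-like and 97.5 and 58.3 CPM in meningeal-like cells. PCDH18 shared that pattern at 146 and 154 and, in the meningeal-like class, 159.6 and 202 CPM. PCDH19, the delta-2 protocadherin of an X-linked epilepsy, was likewise highest in meningeal-like cells (91.6 and 65.1 CPM), and PCDH1 in endothelial-like cells (26.5 and 24.5 CPM, on only 6 and 7 UMIs). These classes were small, with 44 and 43 endothelial-like and 58 and 55 meningeal-like cells, and the pericyte gene ABCC9 was among the leading genes of the endothelial-like cluster. That cluster met 10 endothelial markers but also 5 of meningeal fibroblasts (COL1A1, COL1A2, COL3A1, FOXC1 and BGN). With 30 principal components no endothelial-like class was named, and the meningeal-like class held 107 and 99 cells. The endothelial-like values may therefore include other cells. No test was made between non-neural classes.

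Across all 43 models, 22 had the same highest cluster in both embryos. Pearson's r of a model's level between the embryos over the 17 clusters, whose points share each embryo's library and depth, had a median of 0.849. Neurons were set against progenitors with UMI sums per embryo and class for the 7 neural classes (14 sums, 10174 models tested, 36 of them members). A call is an adjusted p under 0.05 in edgeR's quasi-likelihood test with the embryo as a block and Benjamini-Hochberg adjustment over all models tested. The log2 fold change averages the classes of each side on the log scale after edgeR's scaling of totals. Its SE is the absolute log2 fold change divided by the square root of the test's F statistic, since the test itself gives no SE. The CPM given over several classes are plain means without that scaling, so the fold change and the CPM can differ in size or sign.

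The comparison of neuron-like with progenitor-like (radial glia-like and dividing cell-like) classes called 15 of 36 member models higher in neurons and 14 lower. Of all models tested, 68.9% were called in this comparison (32.5% higher and 36.4% lower), beside 41.7% and 38.9% of the members, so neither share of the members stands far from the background. Without the other FAT4-named models the counts were 13 and 11 of 31, and the median log2 fold change was 0.10, beside -0.03 over all models. With total UMIs as the only scaling, which moves the median of all models up by 0.26 on the log2 scale, 18 members were higher and 9 lower.

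The clustered protocadherins and several type II cadherins were higher in neurons. All 3 models tested under clustered protocadherin names rose. PCDHA3 had 6.39 and 5.10 CPM over the neuron-like classes of embryos 1 and 2 and 0.128 and 0.468 CPM over progenitors, a log2 fold change of 3.86 ± 0.42, edgeR adjusted p = 3.92e-10. PCDG7 had 20.9 and 14.7 against 5.29 and 4.09 CPM (1.67 ± 0.15, edgeR adjusted p = 3.31e-12), and PCDG6 2.59 and 1.88 against 0.513 and 0.472 CPM (1.86 ± 0.53, edgeR adjusted p = 0.00229). In each of the 3 both embryos' neurons exceeded both embryos' progenitors. Of 10 type II cadherins tested, 5 rose and 3 fell. CDH18 was at 2.51 and 2.43 CPM in neurons against 0.128 and 0.228 CPM in progenitors (4.16 ± 0.71, edgeR adjusted p = 3.81e-06). CDH9, a cadherin of specific synapses in hippocampus and retina, was at 5.99 and 4.63 against 0.257 and 0.912 CPM (3.29 ± 0.75, edgeR adjusted p = 0.000215). Radial glia-like cells held 0 UMIs of both genes in both embryos, which allows up to 0.481 and 0.480 CPM, so these 2 fitted values depend on edgeR's prior count. CDH12 (2.70 ± 0.66, adjusted p by edgeR 0.000467), CDH7 (2.24 ± 0.38, adjusted p by edgeR 3.63e-06) and CDH24 (0.78 ± 0.22, adjusted p by edgeR 0.00215) completed the higher type II cadherins. CDH7, a cadherin of hindbrain and spinal cord nuclei, went from 1.96 and 1.17 CPM in progenitors to 12.2 and 10.6 CPM in neurons. Among the delta-1 protocadherins, PCDH1 rose from 0.738 and 0.464 to 3.05 and 5.40 CPM (2.54 ± 0.39, edgeR adjusted p = 5.34e-07), and the PCDH9-named model evm.model.chr30.141 by 0.80 ± 0.32, edgeR adjusted p = 0.0272. Taken alone, on the log2 CPM scale, 1 embryo moved the value by over 1.5 times for PCDHA3 (5.80 in embryo 1), PCDG6 (1.01 in embryo 1), PCDH1 (1.51 in embryo 1) and CDH12 (1.27 in embryo 2), with the direction kept.

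FAT1, which organises apical junctions and actin and is known from neural progenitors, had the largest fall among the members. Its model evm.model.chr20.408 was at 100.1 and 92.8 CPM in radial glia-like and 87 and 70.7 CPM in dividing cell-like cells, against 28 and 25.4 CPM over the neuron-like classes. The log2 fold change was -2.46 ± 0.07, edgeR adjusted p = 2.05e-26. The neighbouring model evm.model.chr20.409 gave -2.94 ± 0.17, edgeR adjusted p = 2.64e-17, from 19.1 and 16.9 CPM in progenitors to 4.34 and 4.48 CPM in neurons. In both models the progenitor values of both embryos lay above the neuron means. The neuron-like classes were not alike: inhibitory neuron-like cells (cluster 0) held evm.model.chr20.408 at a level near that of dividing cell-like cells, given below. FAT3, which directs the shape of retinal and cerebellar neurons, moved the other way, from 30.8 and 28.4 to 67.1 and 65.1 CPM (0.76 ± 0.07, edgeR adjusted p = 2.15e-12). FAT4, a regulator of growth and tissue polarity, was called lower by a narrow margin (-0.25 ± 0.11, edgeR adjusted p = 0.0464), while its CPM means were higher in neurons (29.4 and 32.4 against 25.3 and 20.2), and it was at -0.42 in embryo 1 and -0.069 in embryo 2 alone. DCHS1, the ligand of FAT4, gave 0.08 ± 0.24, edgeR adjusted p = 0.775 and CELSR2 0.22 ± 0.11, edgeR adjusted p = 0.082, and neither passed the test. CELSR2 was called higher in 7 of the alternatives, among them 0.45 in cells of at least 1000 genes and 0.48 with total UMIs as the only scaling (edgeR adjusted p = 0.0025 and 0.000288).

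Some type II cadherins and delta-2 protocadherins also fell, not all of them in every alternative. CDH11 went from 6.42 and 5.81 CPM in progenitors to 4.56 and 3.74 CPM in neurons (-1.32 ± 0.25, edgeR adjusted p = 1.35e-05). The neuron-like classes were not alike, since cortical-like cells held CDH11 above these progenitor values, as given below. CDH6, a type II cadherin of early neural territories, went from 11 and 9.58 to 7.92 and 6.23 CPM (-0.96 ± 0.15, edgeR adjusted p = 6.26e-07). Of the 5 delta-2 protocadherins, PCDH10 (1.00 ± 0.23, edgeR adjusted p = 0.000232) and PCDH17 (0.89 ± 0.13, edgeR adjusted p = 2.11e-07) rose and PCDH18, PCDH8 and PCDH19 fell. PCDH10 was at 7.84 and 7.30 CPM in neurons against 2.66 and 2.49 in progenitors, and PCDH17 at 17.8 and 17.1 against 7.14 and 6.62. PCDH18 was at 10.4 and 9.59 against 16.6 and 14 CPM (-0.99 ± 0.13, edgeR adjusted p = 4.16e-08), PCDH8 at 5.57 and 7.23 against 7.41 and 8.16 (-0.85 ± 0.19, edgeR adjusted p = 0.000198) and CDH8 at 14 and 11.2 against 16.3 and 18.1 (-0.85 ± 0.13, edgeR adjusted p = 5.16e-07). PCDH19 (-0.31 ± 0.13, adjusted p by edgeR 0.0358), PCDH20 (-0.91 ± 0.36, adjusted p by edgeR 0.0256) and CADH2 (-0.13 ± 0.06, adjusted p by edgeR 0.0451) were called lower although their CPM means were higher in neurons. With cluster 5 left out, an alternative chosen after seeing the data, CDH8 turned to 0.49, PCDH8 to 1.40 and CADH2 to 0.10, and the calls of PCDH18 (-0.18), PCDH19 (-0.19) and PCDH20 (-0.65) ended. CDH8 and PCDH8 were then called higher in neurons (edgeR adjusted p = 0.0224 and 0.00131). In cells with at least 1000 genes PCDH8 (0.96) and CADH2 (0.17) were called higher (edgeR adjusted p = 0.0207 and 0.0162). The calls of CADH2, FAT4, the PCDH9-named model, PCDH19 and PCDH20 also ended with DESeq2. Over the 13 alternatives these calls were not kept in 9, 8, 4, 7 and 7. In 1 embryo alone CDH11 was at -2.38 (embryo 2), PCDH20 at -2.28 (embryo 1) and PCDH8 at -1.35 (embryo 1), the other embryo being nearer the fitted value.

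**Figure D2:**
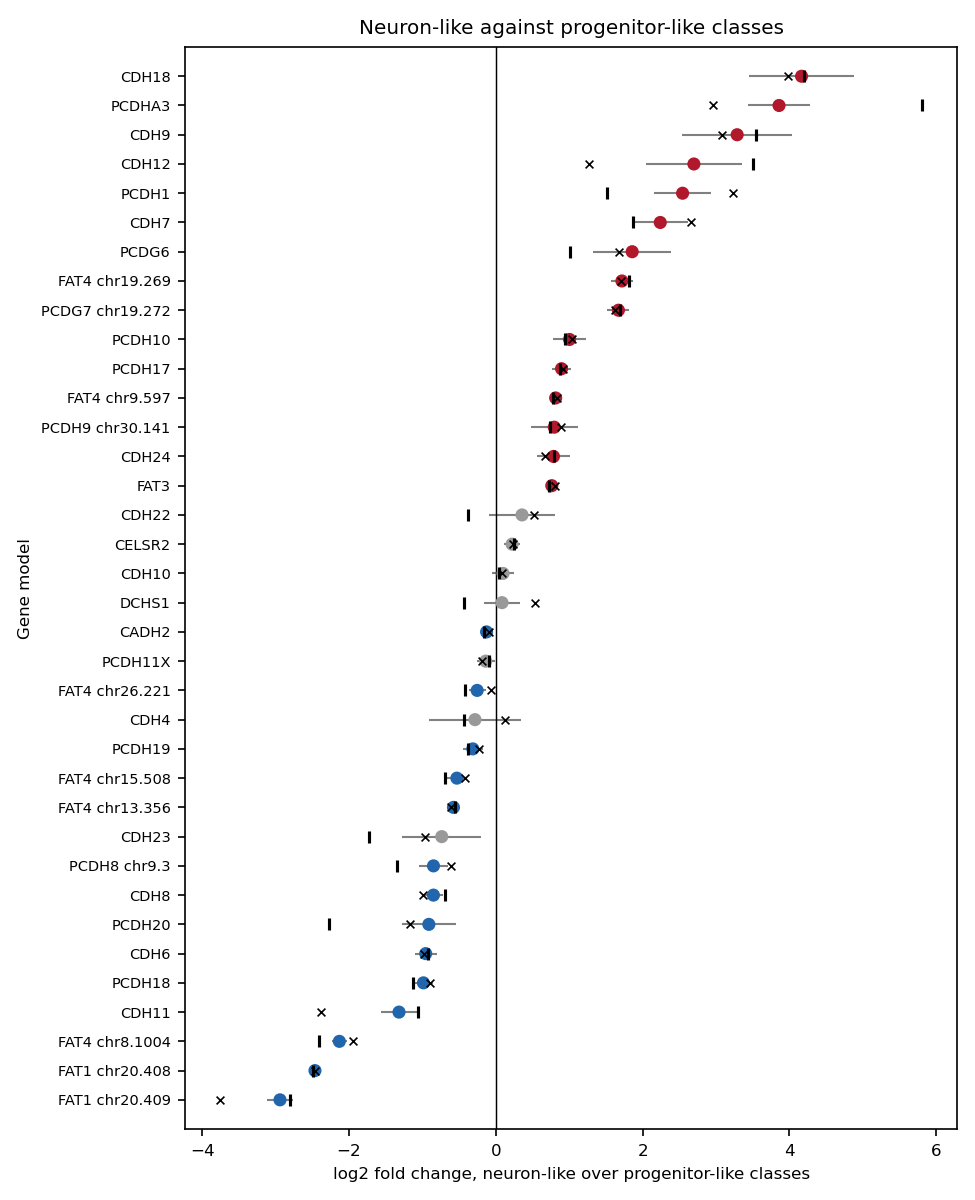
Log2 fold change of each of the 36 tested models, neuron-like over progenitor-like classes (filled points, with bars of 1 SE derived from the F statistic of edgeR's test, red called higher, blue called lower, grey not called). Ticks and crosses give embryos 1 and 2 alone, on a log2 CPM scale with a small prior count. CDH18 and PCDHA3 lie at the top and the 2 FAT1 models at the bottom, with both embryos on the same side of 0.

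The progenitor-like cells were themselves split by their cadherins, and the levels by cluster show where CDH8 and PCDH8 were found. CDH8, a type II cadherin that marks subdivisions of the early brain, was at 38.2 and 38.9 CPM in radial glia-like cluster 5 and 40.6 and 40.0 CPM in dividing cell-like cluster 9. In radial glia-like cluster 4 it was at 2.40 and 3.70 CPM and in dividing cell-like cluster 3 at 2.76 and 3.0 CPM. The exact 95% Poisson intervals of clusters 5 and 4 were apart in each embryo (30.9 to 46.8 and 32.2 to 46.6 against 1.10 to 4.55 and 1.91 to 6.46 CPM). PCDH8, the activity-regulated protocadherin also called arcadlin, was at 24.6 and 20.9 CPM in cluster 5 and 12.6 and 14.2 in cluster 9, against 0.267 and 0.617 in cluster 4 and 0.787 and 1.62 in cluster 3. PCDH18 was at 39.1 and 28.6 and CDH6 at 16.5 and 13.3 CPM in cluster 5, against 5.60 and 6.48 and 7.20 and 5.24 CPM in cluster 4. In cluster 9 these 2 genes were at 21 and 15.1 and 22.1 and 22.2 CPM, against 10.6 and 8.77 and 5.31 and 3.69 CPM in cluster 3. In both embryos, the values of all 4 genes in clusters 5 and 9 lay above those in clusters 4 and 3.

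FAT4, PCDH17 and PCDH11X showed the opposite arrangement, with larger values in clusters 4 and 3. FAT4 was at 38.1 and 34.8 CPM in cluster 4 and 31.1 and 23.1 in cluster 3, against 8.45 and 6.65 in cluster 5 and 11.8 and 11.6 in cluster 9. PCDH17 was at 10.4 and 9.25 CPM in cluster 4 and 9.64 and 9.47 CPM in cluster 3, against 2.42 and 3.33 in cluster 5 and 2.21 and 1.78 in cluster 9. PCDH11X, the X-linked delta-1 protocadherin, was at 16.8 and 18.5 in cluster 4 and 28.7 and 25.2 in cluster 3, against 3.62 and 1.33 in cluster 5 and 9.23 and 4.45 in cluster 9. FAT1 differed less between these clusters, with evm.model.chr20.408 at 94.9 and 82.6, 108 and 104, 81.7 and 62.8 and 97.1 and 85.9 CPM in clusters 4, 5, 3 and 9. The unnamed cluster 11 resembled neither arrangement as a whole, since it combined high CDH6 (34 and 29.6 CPM), PCDH17 (24.9 and 35.5) and FAT4 (29.5 and 26.6) with low CDH8 (3.40 and 6.90). CDH10 in this cluster was at 57.8 and 67 CPM, against 13 to 21.4 CPM in the 4 progenitor-like clusters. These differences between clusters are descriptions and were not tested.

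**Figure D3:**
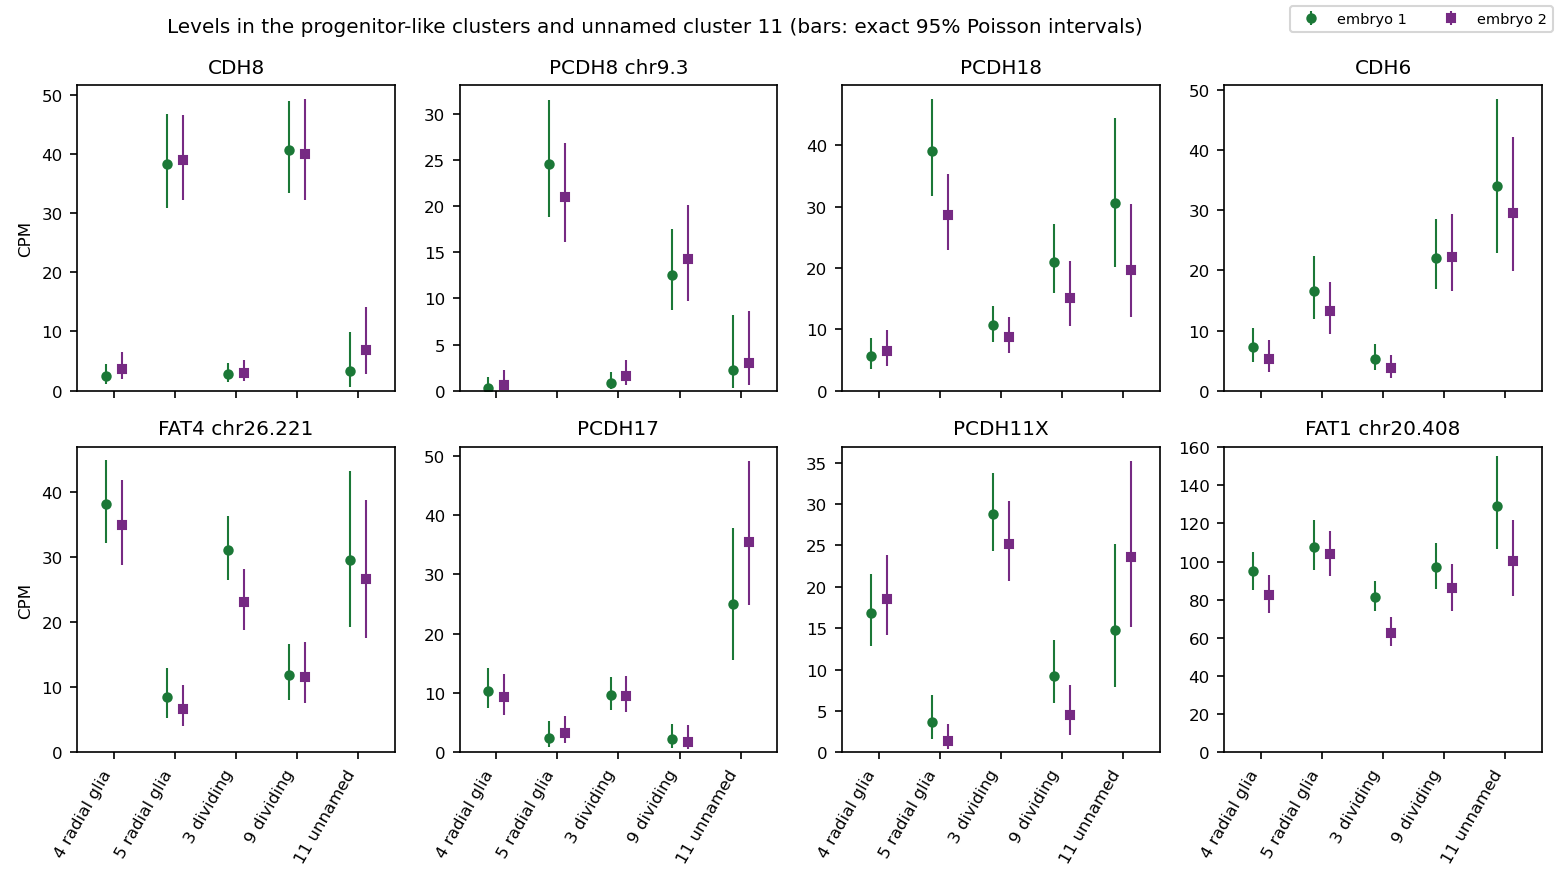
CPM of 8 members in the 4 progenitor-like clusters and unnamed cluster 11, for embryo 1 (green circles) and embryo 2 (purple squares), with exact 95% Poisson intervals. CDH8, PCDH8, PCDH18 and CDH6 have their larger values in clusters 5 and 9, FAT4, PCDH17 and PCDH11X in clusters 4 and 3, and FAT1 is high in all of them.

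Inhibitory neuron-like classes were then compared with excitatory ones. Of 36 member models 17 were higher and 3 lower in the inhibitory than in the excitatory neuron-like classes, beside 24.5% of all models tested that were called (11.4% higher and 13.1% lower). Without the other FAT4-named models, 14 were higher and 2 lower of 31. The members' median log2 fold change was 0.53, beside 0.04 over all models. With total UMIs as the only scaling, which moves the median of all models up by 0.12, 20 were higher and 0 lower, with 3 lower at an unadjusted p under 0.05, and DESeq2 called 2 lower. In cells with at least 1000 genes, clustered anew, 11 were higher and 6 lower. These classes did not hold the same cells: in embryo 1 the granule neuron-like cells went from 239 to 701 and the nascent inhibitory neuron-like cells from 1558 to 434, with the same directions in embryo 2.

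CDH22, a type II cadherin, and PCDH20 had the largest differences, and both had their largest neuronal values in the GATA3 and OTX2 cells of cluster 0. CDH22 was at 14.4 and 17.1 CPM in cluster 0, at 4.89 and 5.30 CPM in nascent inhibitory neuron-like cells and at 0.669 and 1.27 CPM over the excitatory classes, a log2 fold change of 3.23 ± 0.36, edgeR adjusted p = 8.44e-09. PCDH20 was at 10.6 and 18.8 CPM in cluster 0 and 0.882 and 1.04 CPM over the excitatory classes (2.76 ± 0.45, edgeR adjusted p = 9.88e-06). FAT1 was high in the same cluster, at 78 and 73.6 CPM for evm.model.chr20.408, against 11.4 and 11.3 CPM in midbrain or thalamus-like and 8.0 and 6.34 CPM in granule neuron-like cells. Nascent inhibitory neuron-like cells, at 21.3 and 19.3 CPM, were near the cortical-like cells at 21.2 and 16.6 CPM. Its log2 fold change between inhibitory and excitatory classes was 1.64 ± 0.13, edgeR adjusted p = 5.08e-12, and that of evm.model.chr20.409 was 2.21 ± 0.35, edgeR adjusted p = 5.74e-06. The second call ended with at least 1000 genes per cell (0.88, edgeR adjusted p = 0.098). FAT4 was at 69.6 and 81.9 CPM in cluster 0, against 15.6 and 15.9 in nascent inhibitory neuron-like cells. Cortical-like cells, with the values given below, lay between these 2 inhibitory classes. The log2 fold change of FAT4 between inhibitory and excitatory classes was 0.89 ± 0.15, edgeR adjusted p = 1.41e-05. PCDH10 was at 17 and 15.9 CPM in cluster 0 and 12.1 and 10.1 in cluster 1, against 4.0 and 4.35 CPM over the excitatory classes (1.48 ± 0.22, edgeR adjusted p = 2.6e-06). CDH10 was at 60.2 and 53.2 CPM in cluster 0, but midbrain or thalamus-like cells also had 27.7 and 44.6 CPM (1.19 ± 0.17, edgeR adjusted p = 1.25e-06). In 1 embryo alone PCDH20 was at 5.43 (embryo 1, with 0 UMIs in 2 excitatory classes), CDH22 at 4.78 (embryo 1) and evm.model.chr20.409 at 3.62 (embryo 2).

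Differences were also called for the PCDH9-named model evm.model.chr30.141 (1.52 ± 0.32), PCDH8 (0.93 ± 0.28), PCDH19 (0.80 ± 0.17) and CADH2 (0.44 ± 0.07). The calls of PCDH8 (0.45) and PCDH19 (0.10) ended in cells of at least 1000 genes, and embryo 1 alone gave 2.03 and 1.14 for them, against 0.34 and 0.48 in embryo 2. The call of PCDH8 also ended at a resolution of 1.0 (0.75), and that of PCDH19 with 30 principal components (0.41). CDH23, the tip-link cadherin of hair cells, was called higher on few UMIs (1.96 ± 0.71, edgeR adjusted p = 0.0406), at 14 and 9 UMIs in inhibitory neuron-like cells. CDH18 (1.17 ± 0.41, edgeR adjusted p = 0.0327) and PCDH11X (0.52 ± 0.15, edgeR adjusted p = 0.012) were also higher, but cells with at least 1000 genes gave -0.61 and -0.50 for them. The calls of CDH18, CDH23 and PCDH11X ended with DESeq2. Those of CDH18 and PCDH11X were each lost in 5 of the 13 alternatives, and that of CDH23 in 2 of the 7 that tested it. PCDH18 (-0.66 ± 0.23, adjusted p by edgeR 0.0369) and CELSR2 (-0.50 ± 0.15, adjusted p by edgeR 0.0117) were lower in inhibitory classes. The call of CELSR2 ended with total UMIs as the only scaling (-0.38) and with no replicate block (-0.50), and embryo 1 alone gave -0.28. PCDH18 was at 6.36 and 8.02 CPM there against 13.1 and 10.6 CPM in excitatory classes. Its call ended in 7 of the 13 alternatives, among them DESeq2 (-0.68, adjusted p = 0.0525). Alone, embryo 1 gave -1.03 and embryo 2 -0.41 for PCDH18.

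CDH9 showed how unevenly a cadherin could fall within a class. It was at 33.3 and 21.8 CPM in nascent inhibitory cluster 1 (ISL1, SIX3), at 7.44 and 5.26 CPM in nascent inhibitory cluster 6 (DLX genes, SST) and at 0.424 and 0.825 CPM in cluster 0. PCDH17 also had its largest neuronal values in cluster 1, at 46.5 and 46.7 CPM in cluster 1, 12.4 and 16.4 in cluster 6 and 10.6 and 8.87 in cluster 0. CDH7 was at 22.9 and 16.2 CPM in cluster 1, at 3.31 and 0.584 CPM in cluster 6 and at 8.91 and 9.28 CPM in cluster 0. CDH7 was also present in the excitatory cells, at 12.5 and 16.6 CPM in cortical-like and 21.2 and 13.5 CPM in midbrain or thalamus-like cells. Between inhibitory and excitatory classes CDH9 (1.43 ± 0.58, edgeR adjusted p = 0.0691), PCDH17 (0.35 ± 0.15, edgeR adjusted p = 0.0945) and CDH7 (0.48 ± 0.29, edgeR adjusted p = 0.247) did not pass the test. In cells with at least 1000 genes they gave -1.10, -0.58 and -1.34, the last 2 called lower. CDH7 was also called lower with 30 principal components (-1.21) and with members among the variable genes (-0.65). PCDH17 was called higher with total UMIs as the only scaling (0.47). CDH9 was called higher in 5 alternatives, at 1.45 to 2.23. FAT3 (-0.21 ± 0.08, edgeR adjusted p = 0.0519), CDH4 (2.16 ± 1.07, edgeR adjusted p = 0.152) and DCHS1 (0.62 ± 0.30, edgeR adjusted p = 0.136) did not pass either. FAT3 was called lower in 4 alternatives, at -0.52 to -0.21. Among the 3 clustered protocadherins edgeR called 0, with 0 at an unadjusted p under 0.05 and 0 by DESeq2.

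**Figure D4:**
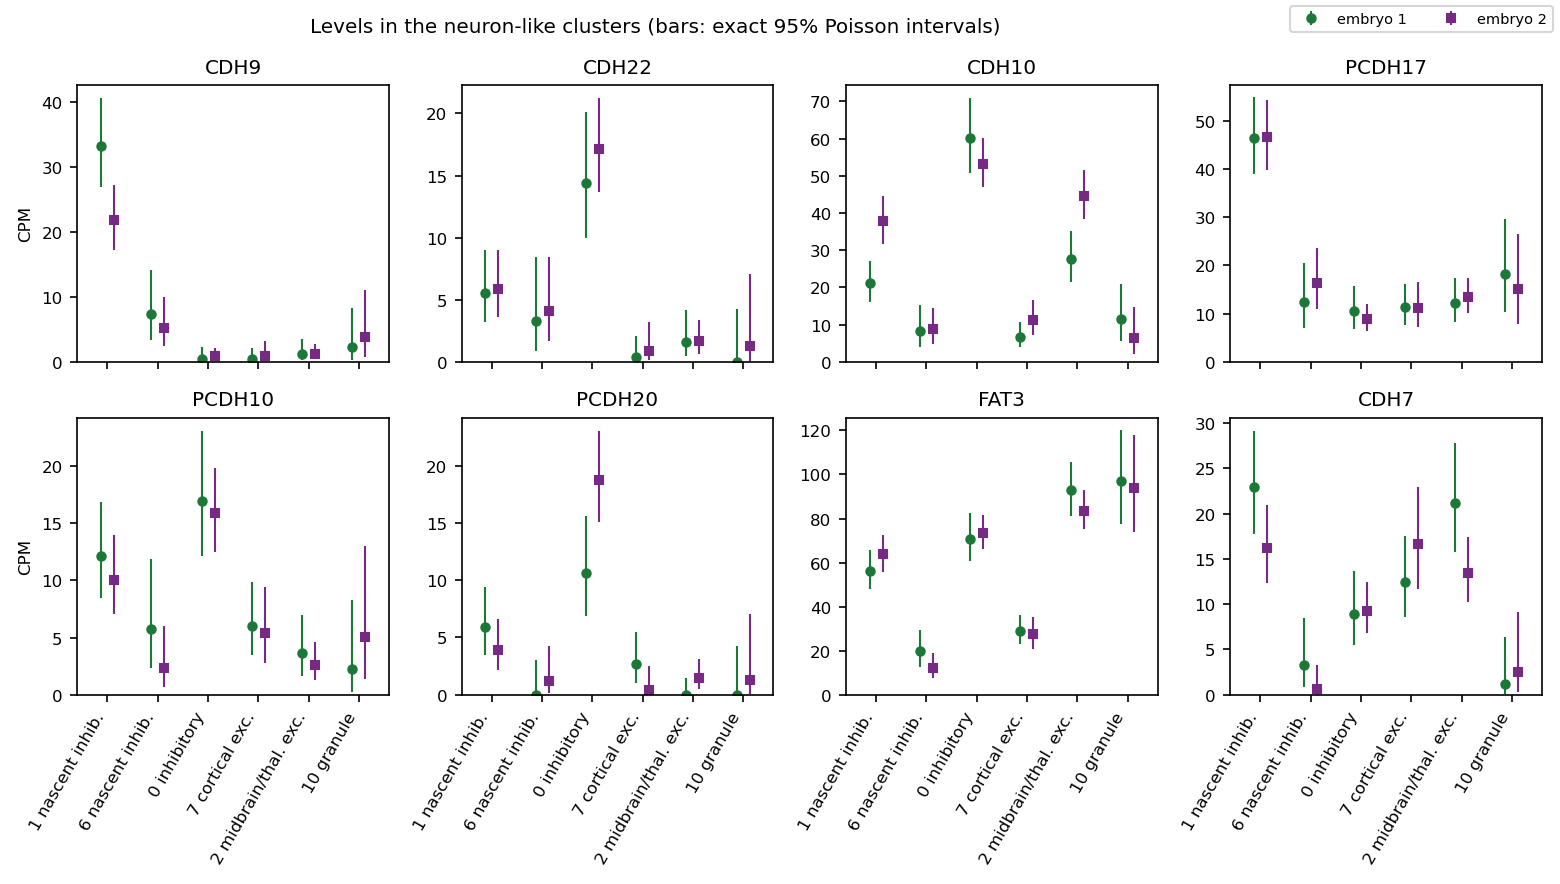
CPM of 8 members in the neuron-like clusters, for embryo 1 (green circles) and embryo 2 (purple squares), with exact 95% Poisson intervals. CDH9 and PCDH17 stand out in cluster 1, CDH22, PCDH20 and CDH10 in cluster 0, and FAT3 in midbrain or thalamus-like and granule neuron-like cells.

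Among excitatory cells, cortical-like were compared with midbrain or thalamus-like neurons. Of 36 member models 6 were higher and 9 lower in the cortical-like class, beside 23.1% of all models called (12.1% higher and 11.0% lower). Without the other FAT4-named models the counts were 5 and 7 of 31, and the median of all 36 was -0.18, beside 0.00 over all models. Total UMIs as the only scaling, which moves the median of all models down by 0.13, gave 5 higher and 9 lower.

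The cortical-like neurons had more CDH11 and FAT4. CDH11 was at 11.7 and 10.3 CPM in cortical-like and 2.85 and 1.65 CPM in midbrain or thalamus-like cells (2.49 ± 0.42, edgeR adjusted p = 1.74e-05). FAT4 was at 37.1 and 42.6 against 14.7 and 11.6 CPM (1.76 ± 0.20, edgeR adjusted p = 1.22e-08). The PCDH9-named model evm.model.chr30.141 had 4.16 and 8.97 against 0.814 and 0.945 CPM (2.98 ± 0.53, edgeR adjusted p = 3.66e-05). In these 3 models both cortical-like values exceeded both midbrain or thalamus-like values. CELSR2, a seven-pass cadherin of axon guidance and planar polarity, was at 32.5 and 33.7 against 27.7 and 19.8 CPM (0.63 ± 0.18, edgeR adjusted p = 0.00926), a call that ended with at least 1000 genes per cell (0.42) or with no replicate block (0.64). In embryo 1 alone it was at 0.38. FAT1 evm.model.chr20.408 was also called higher (0.85 ± 0.22, edgeR adjusted p = 0.00301), while evm.model.chr20.409 (1.23 ± 0.55, edgeR adjusted p = 0.108) did not pass. The call of evm.model.chr20.408 was lost in 3 of the 13 alternatives, and its value turned to -0.25 when the cells were clustered at a resolution of 1.0.

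The midbrain or thalamus-like neurons had more of several type II cadherins and delta-2 protocadherins. FAT3 was at 92.8 and 83.6 CPM there, close to its level in granule neuron-like cells (97.1 and 93.8 CPM), against 29.1 and 27.4 CPM in cortical-like cells (-1.50 ± 0.13, edgeR adjusted p = 1.25e-11). CDH10 was at 27.7 and 44.6 against 6.81 and 11.2 CPM (-1.92 ± 0.26, edgeR adjusted p = 3.35e-07), with both midbrain or thalamus-like values above both cortical-like ones. CDH8, at 17.9 and 11.1 against 4.16 and 7.18 CPM (-1.18 ± 0.33, edgeR adjusted p = 0.00704), and CDH6, at 13.8 and 9.21 against 4.92 and 4.94 CPM (-1.06 ± 0.31, edgeR adjusted p = 0.00942), were lower in the cortical-like cells too. PCDH8 (-1.83 ± 0.47, edgeR adjusted p = 0.00303) went from 6.51 and 8.03 to 0.756 and 3.14 CPM and PCDH19 (-1.13 ± 0.29, edgeR adjusted p = 0.00286) from 17.1 and 14.6 to 4.92 and 8.53 CPM. CADH2 was lower by a smaller amount (-0.35 ± 0.12, edgeR adjusted p = 0.026). The calls of CDH6 and CADH2 ended with DESeq2 (adjusted p = 0.0541 and 0.0903), and that of CDH8 at a resolution of 1.0 (-0.89). Over the 13 alternatives the call of CADH2 was lost in 5 and that of CDH6 in 3. Alone, embryos 1 and 2 gave -1.95 and -0.51 for CDH8, -2.91 and -1.23 for PCDH8, and -1.64 and -0.66 for PCDH19. PCDH10 (1.03 ± 0.40, edgeR adjusted p = 0.0604), PCDH17 (-0.07 ± 0.24, edgeR adjusted p = 0.878), PCDH18 (-0.38 ± 0.23, edgeR adjusted p = 0.28), CDH4 (0.99 ± 0.89, edgeR adjusted p = 0.495) and DCHS1 (-0.25 ± 0.47, edgeR adjusted p = 0.776) did not pass.

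**Figure D5:**
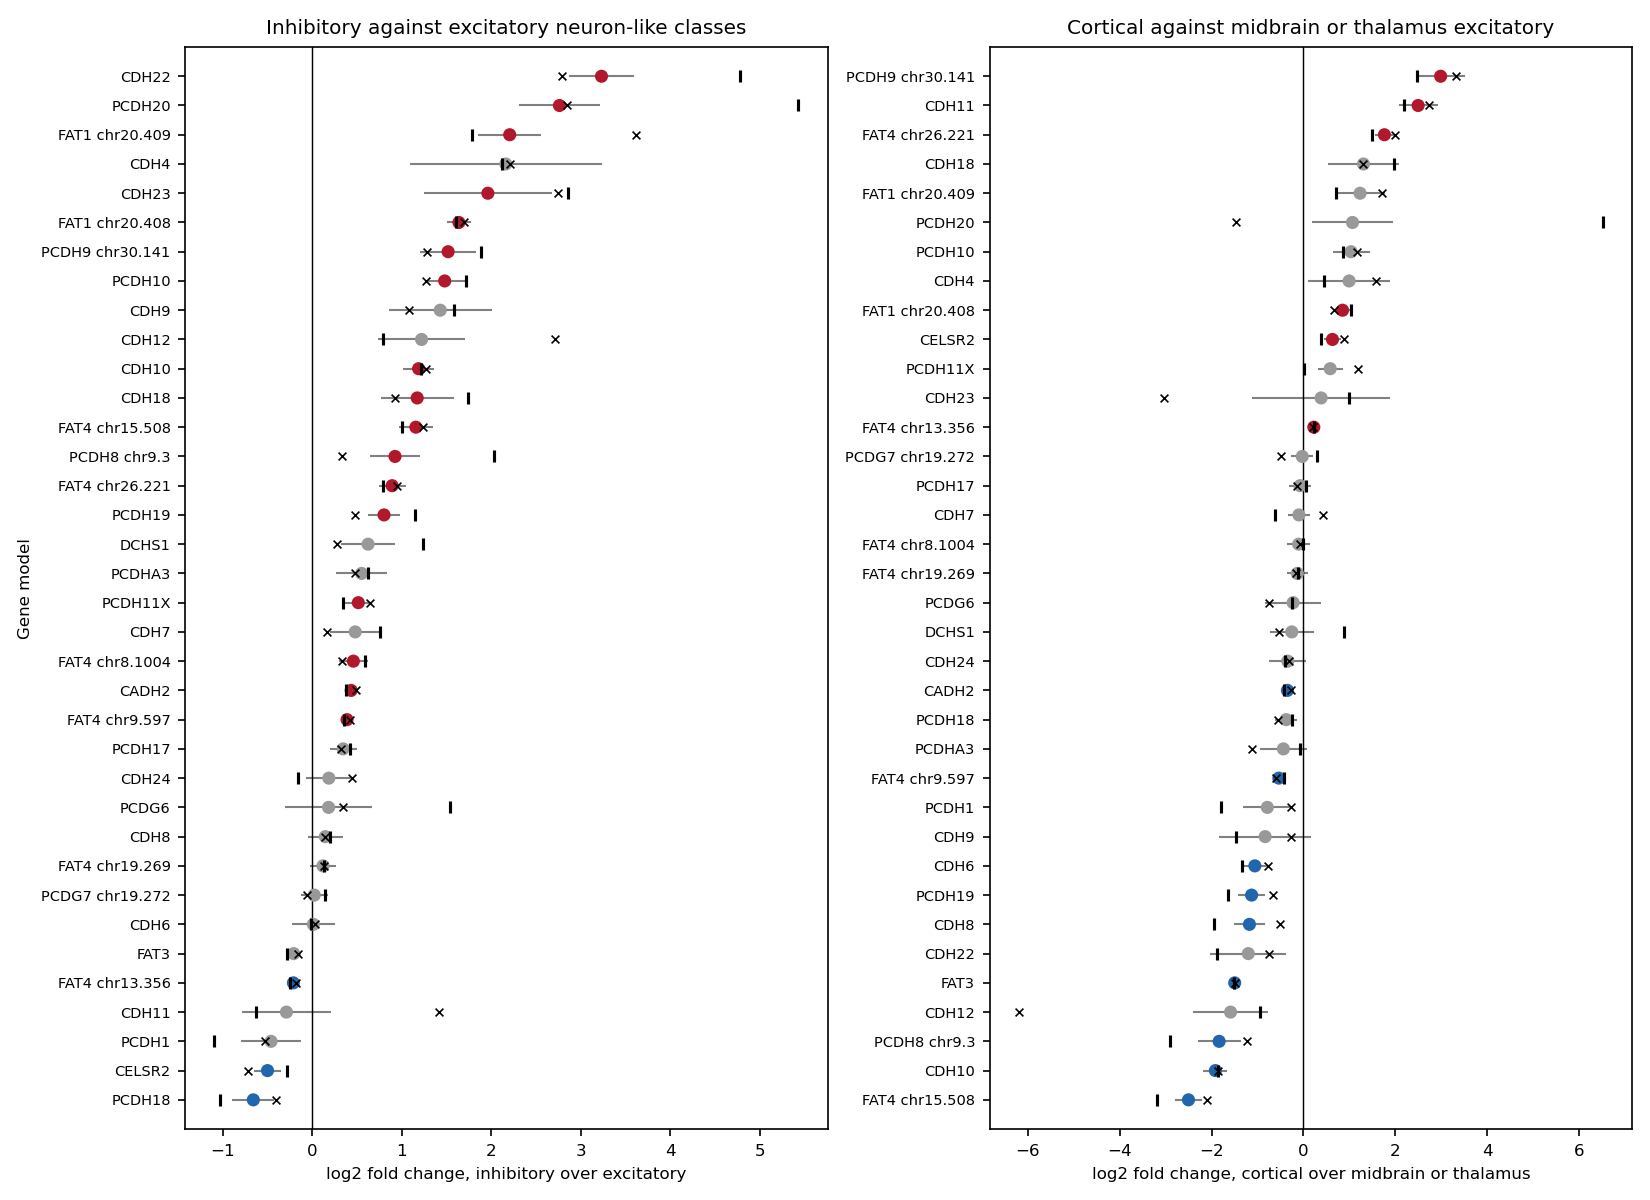
Log2 fold change of each tested model, inhibitory over excitatory neuron-like classes (left) and cortical-like over midbrain or thalamus-like neurons (right), drawn as in the plot of neurons against progenitors. In the left panel most called models lie to the right of 0, with CDH22 and PCDH20 at the top. The mark of embryo 1 for PCDH20 lies far from the point, with 0 UMIs in some excitatory classes of that embryo. Other marks, as for PCDH8 and CDH8 in the right panel, lie apart without a count of 0.

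The other FAT4-named models differed in their levels across classes. The model evm.model.chr13.356 was present in all neural classes at 324 to 544 CPM. It was lower in neurons than in progenitors (-0.58 ± 0.03, edgeR adjusted p = 9.4e-19), a call kept in all 13 alternatives. By smaller amounts, it was lower in inhibitory than in excitatory classes (-0.21 ± 0.04, edgeR adjusted p = 5.2e-05) and higher in cortical-like than in midbrain or thalamus-like cells (0.22 ± 0.06, edgeR adjusted p = 0.00318). With total UMIs as the only scaling the inhibitory and cortical calls ended (-0.089 and 0.089). The inhibitory call also ended in cells of at least 1000 genes, and the cortical call with no replicate block or with all named classes in the fit. The model evm.model.chr8.1004 was numbered between SV2A and HIST2H3D, with further histone names after it (H2B2E, HIST2H2BE and HIST2H4A). It was at 147 and 156 CPM in dividing cell-like and 15.2 and 16.2 CPM in radial glia-like cells. It was lower in neurons than in progenitors (-2.13 ± 0.10, edgeR adjusted p = 6.41e-20). The model evm.model.chr9.597 was highest in nascent inhibitory neuron-like cells (206 and 215 CPM) and higher in neurons than in progenitors (0.81 ± 0.05, edgeR adjusted p = 4.89e-16), and lower in cortical-like than in midbrain or thalamus-like cells (-0.54 ± 0.10, edgeR adjusted p = 4.37e-05). The model evm.model.chr19.269 was also higher in neurons (1.72 ± 0.15, edgeR adjusted p = 7.93e-13). It was numbered between TAF7 and PCDG6, among models with clustered protocadherin names (PCDAA, PCDAC, PCDG6 and PCDG7). It was not counted with the clustered models above. The identities of these other FAT4-named models were not settled, and whether each of them is a cadherin was not tested. Finally, evm.model.chr15.508 was at 38.8 and 78.9 CPM in cluster 1 and 2.48 and 8.18 CPM in cluster 6, and lower in cortical-like than in midbrain or thalamus-like cells (-2.50 ± 0.30, edgeR adjusted p = 3.55e-08).

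Genes that work with cadherins were counted from lists of partners. Catenins and other adherens junction partners (14 genes on 18 models tested) had 7 models higher and 8 lower in neurons than in progenitors. With 68.9% of all models called in this comparison, this count and those of the other 2 lists are near the background. In the inhibitory and cortical comparisons 24.5% and 23.1% of all models were called. The small counts given for those comparisons are not read as results about the lists. The neuronal alpha-catenin CTNNA2 rose by 2.40 ± 0.09 on the log2 scale (evm.model.chr12.543) and 1.95 ± 0.20 (evm.model.chr12.541), and the widespread alpha-catenin CTNNA1 fell, with a log2 fold change of -2.03 ± 0.07, as did PKP4 (-1.66 ± 0.14). Between inhibitory and excitatory classes 5 were higher and 1 lower by edgeR, against 3 called by DESeq2, among them CTNNA2 evm.model.chr12.542 (1.49 ± 0.46) and PARD3 evm.model.chr2.55 (0.80 ± 0.10), with JUP, the plakoglobin of junctions, lower (-0.71 ± 0.25). Between cortical-like and midbrain or thalamus-like cells PKP4 was higher (1.32 ± 0.33), and PARD3 evm.model.chr2.54 (-2.04 ± 0.63), NECTIN3 (-1.17 ± 0.19) and beta-catenin, CTNNB1 (-1.17 ± 0.06), were lower. The neighbouring PARD3 model evm.model.chr2.55, with a smaller SE, was at -0.02 ± 0.18 and was not called. Of 10 planar cell polarity partners, which act with CELSR, FAT and Dachsous proteins, 4 were higher and 2 lower in neurons. PRICKLE2 (2.98 ± 0.30) and PRICKLE1 (2.54 ± 0.42) were higher, and FJX1, the kinase that modifies FAT and Dachsous domains, was lower (-1.62 ± 0.22). In the comparison of inhibitory with excitatory classes 1 of them was higher and 1 lower, FZD3 (0.37 ± 0.08) and VANGL1 (-1.66 ± 0.41). Between cortical-like and midbrain or thalamus-like cells edgeR called 0 of the 10, with 1 at an unadjusted p under 0.05 and 0 by DESeq2. Of 7 subunits of the WAVE complex, the actin regulator that delta-2 protocadherins bind, 2 were higher and 3 lower in neurons, with WASF1 at 1.09 ± 0.05, WASF2 at -0.61 ± 0.06 and CYFIP1 at -0.55 ± 0.18. Between inhibitory and excitatory classes WASF3 was higher (0.79 ± 0.16) and WASF1 lower (-0.26 ± 0.06). Between cortical-like and midbrain or thalamus-like cells CYFIP1 (1.28 ± 0.37) and WASF2 (0.33 ± 0.12) were higher and WASF1 was lower (-0.30 ± 0.08).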

How the data were processed

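Whole brains of 2 tree shrew embryos were profiled with the 10x Chromium 3′ kit (v3 chemistry). The authors ran Cell Ranger 3.1.0 (the submitters' processing notes also name fastp and Seurat) against the TS_2.0 assembly and deposited raw UMI counts per gene model and barcode for each embryo, as called by Cell Ranger.

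Cells with at least 200 genes were kept. Counts were scaled to 10000 per cell and log-transformed. The 2000 most variable genes without those of the name pattern, 20 principal components and 20 neighbours gave the clusters (leidenalg 0.10.2, resolution 0.5, scanpy 1.11.5, Python 3.11.15). A class name needed at least 3 of its fixed markers, each in at least 10% of the cells of a cluster and at 2 times its mean elsewhere. Scrublet called 0 and 1 cells as doublets and so did not work as a caller, and doublets were kept. An alternative left out the 566 and 696 cells with the highest scores. UMIs were summed per embryo and class and tested with edgeR 4.0.16 (R 4.3.3, quasi-likelihood test, TMM scaling, filterByExpr, embryo as a block), with Benjamini-Hochberg adjustment over 10174 models. The sums of an embryo come from the same animal and library, so the samples are paired by animal. Neurons are 5 classes and progenitors 2, each weighted equally. The block takes out the difference between the embryos that all classes share. The p-values therefore measure how the class differences vary between 2 embryos, and not the spread among the classes averaged in a comparison. The classes were made in the same cells. The fit was also run on simulated counts with 200 models changed 4-fold. It recovered 95.5%, 88% and 85.5% of them for the neuron, inhibitory and cortical comparisons, with 5.45%, 2.76% and 4.47% of calls false. All other simulated models had the same share in every class, and all models had the same dispersion. In the data 68.9% of models were called in the neuron comparison, so these rates do not give the error of the calls reported here. Of the 43 member models, 7 were too low to test (CADH5, CDH1, CDH5, CDH15, CDH20, a FAT4-named and a PCDH9-named model). Levels are CPM of all UMIs of a class or cluster with exact 95% Poisson intervals, and a count of 0 allows up to 3 counts. Both cover counting error only. Levels of different genes were not compared, since transcript lengths were not used.

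Named were the up to 8 called members with the largest change per direction and comparison that moved alike in both embryos, all type I, CELSR, FAT, Dachsous and delta-2 members, and members with at least 20 UMIs in the same highest cluster of both embryos and a level at least 5 times that of the median cluster there. The members, marker lists and partner lists were chosen with earlier results of these data known. DESeq2 1.42.0 was run as an alternative, beside other filters, scalings and clusterings.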

Additional observations from a re-analysis of the deposited data

Results flagged for a closer look

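Protocadherin alpha models outside the name pattern carried a signal. Names that begin with PCDA belong to 8 models numbered around PCDHA3 on the same chromosome, and they held 3258 UMIs in the 2 embryos (1449 and 1809), of which PCDAC had 1844. PCDAC was at 75.7 and 58.5 CPM in nascent inhibitory neuron-like cells of embryos 1 and 2, against 3.21 and 2.72 CPM in radial glia-like cells. It was higher in neuron-like than in progenitor-like classes (3.50 ± 0.13, edgeR), as were PCDA8 (4.09 ± 0.27), PCDA4 (3.43 ± 0.39), PCDAA (3.04 ± 0.20) and PCDA2 (2.67 ± 0.55), all log2 fold changes ± SE. Between inhibitory and excitatory classes PCDAC (0.29 ± 0.10), PCDAA (0.54 ± 0.15) and PCDA6 (2.82 ± 0.93) were called higher. PCDA6 had 0 UMIs in granule neuron-like cells of both embryos and 1 to 4 per embryo in the other excitatory classes, so its size is uncertain. In the neuron comparison PCDA6 was not called, but its fit (1.28 ± 50.8) has an SE too large to be read. PCDA1 and PCDA7 were too low to test, and reads shared with PCDHA3 were not tested.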

How the results depend on the processing

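Each comparison was repeated under 13 alternatives, of which the scaling by total UMIs and the fit without cluster 5 were chosen after seeing the data, as was leaving out the other FAT4-named models. PCDG6 (neuron comparison) was tested in 12 of them and CDH23 (inhibitory comparison) in 7, since filters left them out of the others. Calls kept direction and threshold wherever they were tested for 20 of 29 members in the neuron comparison, 10 of 20 in the inhibitory and 9 of 15 in the cortical comparison. The members lower in neurons, 14 as reported, numbered 8 with at least 1000 genes per cell, 9 with total UMIs as the only scaling, 9 with no replicate block and 8 without cluster 5. Those higher in inhibitory classes numbered 11 with at least 1000 genes, and those lower numbered 6 with at least 1000 genes, 6 with 30 principal components, 5 with members among the variable genes and 0 with total UMIs. Models with the same highest cluster in both embryos numbered 35 with 30 principal components, against 22. Within 1 embryo alone, a value with no test, all 15 and 14, 17 and 3, and 6 and 9 called members kept their direction, whichever embryo was left out. Leaving out cells with 1% haemoglobin emptied the erythroid clusters and gave no count of highest clusters.

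In the neuron comparison CADH2 turned to 0.17 with at least 1000 genes, 0.0074 with 30 components, 0.14 with total UMIs and 0.10 without cluster 5. CDH8 turned to 0.25 and 0.49, PCDH8 to 0.96 and 1.40, and evm.model.chr15.508 to 0.65 and 0.49, with at least 1000 genes and without cluster 5. FAT4 turned to 0.13 (30 components), 0.043 (members among the variable genes), 0.58 (highest Scrublet scores left out) and 0.0081 (total UMIs). Some of these turned values were calls the other way, higher in neurons. They were CADH2 with at least 1000 genes and with total UMIs, CDH8 without cluster 5, and FAT4 with the highest Scrublet scores left out. PCDH8 and evm.model.chr15.508 were called higher both with at least 1000 genes and without cluster 5. The classes compared were not the same in every alternative. With the highest Scrublet scores left out, radial glia-like cells went from 1485 and 1400 to 606 and 689. With 30 components and with members among the variable genes, no granule neuron-like class was named. CDH4, not called, turned to 0.61 with members among the variable genes and 0.31 with DESeq2. In the inhibitory comparison CDH18 turned to -0.61 and PCDH11X to -0.50 with at least 1000 genes. The uncalled CDH7 turned to -1.34 (at least 1000 genes), -0.64 (resolution 1.0), -1.21 (30 components) and -0.65 (members among the variable genes). CDH9 turned to -1.10 with at least 1000 genes, FAT3 to 0.055 with members among the variable genes, and PCDH17 to -0.58 with at least 1000 genes and -0.084 at resolution 1.0. In the cortical comparison FAT1 evm.model.chr20.408 turned to -0.25 at resolution 1.0, and the uncalled PCDH17 to 0.0011, 0.26 and 0.077 with at least 1000 genes, resolution 1.0 and 30 components. The cause was not tested. Counts of 0 to 3 UMIs limit CDH5, CADH5, CDH12, CDH15, CDH18 and CDH23 in single classes.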
